A study of Mus musculus with 12 samples.

Results

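Transcripts of 31 genes known from the mouse oocyte were followed through 6 RNA libraries of cumulus cells, the granulosa cells that enclose the oocyte in the antral follicle. The genes form a named list of oocyte growth factors, zona pellucida proteins, maternal-effect proteins, germ-cell RNA-binding proteins and oocyte transcription factors, and rows were matched to them by Ensembl gene identifier. Of the 31 genes, 24 were listed in at least 1 library, out of 13318 genes listed in the series as a whole. The cells came from mice of the Kunming strain. Libraries 1 to 3 of the first group were made from cells treated with FSH, the follicle-stimulating hormone, together with FBS, fetal bovine serum, for 18 hours, and libraries 1 to 3 of the other group from cells labelled untreated, with no culture time stated. The series sets cumulus-oocyte complexes in a medium that allows cumulus expansion beside complexes whose oocyte had been removed, in a medium that triggers apoptosis. The labels do not say which libraries came from complexes that held an oocyte, nor whether oocytes were taken away before RNA extraction, and culture time, medium and any removal of the oocyte cannot be told apart between the groups. Nothing states that numbered libraries are separate cultures or animals, so the spread between them may be technical.

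The oocyte and its cumulus cells talk in both directions. The oocyte secretes GDF9 and BMP15, growth factors of the TGF-beta family that act on receptors of the cumulus cells, while cumulus cells supply the oocyte through gap junctions and with KIT ligand, whose receptor the oocyte carries. A growing oocyte also stores messenger RNA for the zona pellucida, its glycoprotein coat, and for proteins used in the first cleavages of the embryo. Such stored transcripts are absent or scarce in somatic granulosa cells, and several of them are used as markers of the oocyte.

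The deposited values are FPKM, which scale fragments by transcript length and by mapped fragments, for each transcript event. The value of a gene in a library is the larger of its summed first-exon and its summed last-exon FPKM. A gene with no such row is called not listed, which is neither a 0 nor a measured absence, and the depth behind the values is unknown. The libraries listed 10477 to 11398 genes after FSH and FBS and 10787 to 11551 genes in untreated cells, with a median per listed gene of 8.26 to 8.43 FPKM after FSH and FBS and 6.49 to 7.58 FPKM in untreated cells. FSH and FBS libraries 1 and 2 were close to each other, with a median absolute log2 ratio of 0.12 over 9022 genes and 2.82% of genes more than 2-fold apart. The same held for untreated libraries 1 and 2, at 0.15 and 4.54%. Library 3 stood apart from both others of its group, by 0.54 and 0.55 in the FSH and FBS group and by 0.46 in each untreated pair. Libraries 1 and 2 of a group were therefore averaged and counted as 1 sample, which leaves 2 samples per group. The 16 markers fixed for granulosa and cumulus cells summed to 1113, 1140 and 777 FPKM in FSH and FBS libraries 1, 2 and 3, against 1555, 1621 and 1389 FPKM in the untreated ones, with 11 to 13 markers listed in each library. Most of this lower sum was Gja1, a gap junction gene, at 446, 448 and 240 FPKM against 968, 995 and 709 FPKM in the untreated libraries. The 11 markers tested had a median log2 difference of 0.30, FSH and FBS over untreated, beside 0.24 over all genes. Amh, Nr5a2, Inhba, Fst, Npr2 and Nr5a1 were on the higher side, and Wt1, Fshr, Gja1, Amhr2 and Inha on the lower. Of these 11 markers, limma called 1, beside 2.37% of all 9022 genes tested. It was Wt1, which encodes a transcription factor of ovarian somatic cells. Its levels after FSH and FBS were 0.419, 0.145 and 0.00628 FPKM in libraries 1, 2 and 3, against 8.04, 9.03 and 3.73 FPKM in the untreated libraries. Its log2 difference was -2.56 (SE 0.45, limma adjusted p = 0.029), and the call was lost by median of ratios (adjusted p = 0.056), with equal sums (0.060), with first exons only (0.13) and with unlisted genes as 0 (0.098).

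Oocyte transcripts were nearly missing from FSH and FBS libraries 1 and 2, and were present in FSH and FBS library 3 and in every untreated library. FSH and FBS libraries 1, 2 and 3 listed 2, 3 and 13 of the 31 genes, and untreated libraries 1, 2 and 3 listed 22, 18 and 18. The 13 genes in FSH and FBS library 3 are 54.2% of the 24 listed anywhere, while 78.7% of the 13318 genes were listed in that library. The summed FPKM of the listed genes was 2.53, 3.15 and 36.9 in FSH and FBS libraries 1, 2 and 3, against 41.2, 41.8 and 48.5 in untreated libraries 1, 2 and 3. All 3 sums after FSH and FBS lay below all 3 untreated sums, but library 3 stood near the untreated libraries and far from the other libraries of its own group. With libraries 1 and 2 averaged, the sum was 19.8 ± 24.1 FPKM after FSH and FBS and 44.99 ± 4.95 FPKM in untreated cells (SD, n = 2 each). Without library 3 the FSH and FBS value was 2.84 FPKM. The labels do not say whether any library held oocytes, and the source of these transcripts was not tested. If oocytes were present, fewer oocytes and less of these transcripts per oocyte cannot be told apart in bulk RNA. The sum is small in every library, at 0.00092%, 0.00115% and 0.00943% of the summed FPKM of all genes in FSH and FBS libraries 1, 2 and 3, against 0.0155%, 0.0158% and 0.0181% in the untreated libraries.

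**Figure D1:**
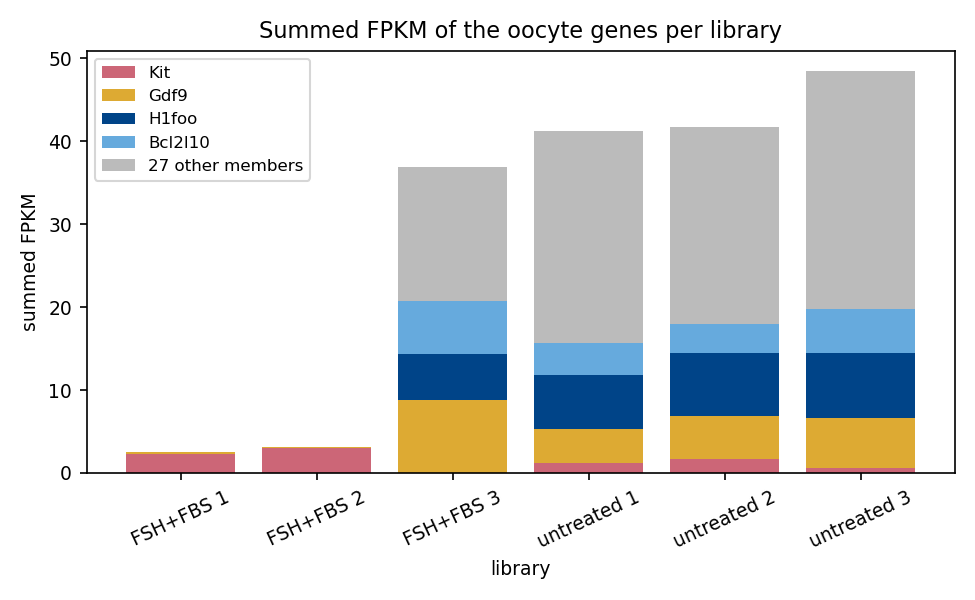
Stacked bars give the summed FPKM of the 31 oocyte genes in each library, split into Kit, Gdf9, H1foo, Bcl2l10 and the remaining members. FSH and FBS libraries 1 and 2 reach 2.53 and 3.15 FPKM, nearly all of it Kit. In FPKM as deposited, FSH and FBS library 3 reaches 36.9 FPKM, beside the untreated libraries at 41.2 to 48.5 FPKM.

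The few member values in FSH and FBS libraries 1 and 2 came mostly from Kit, which held 89.7% and 94.2% of the sum there. Without Kit the other 30 genes summed to 0.260, 0.183 and 36.9 FPKM in FSH and FBS libraries 1, 2 and 3, against 40.0, 40.1 and 47.9 FPKM in the untreated libraries. FSH and FBS libraries 1 and 2 had 84986 and 85853 event rows, more than the 63940 rows of FSH and FBS library 3, beside 85174, 76969 and 68742 rows in untreated libraries 1, 2 and 3. They listed 11364 and 11398 genes, against 11404, 11551 and 10787 genes in the untreated libraries. Their lowest listed genes stood at 0.000779 and 0.000717 FPKM, beside 0.00247 FPKM in FSH and FBS library 3. In untreated libraries 1, 2 and 3 the lowest were at 0.00172, 0.000257 and 0.000899 FPKM. A lowest listed value is not a detection limit. Whether depth or detection accounts for the unlisted oocyte genes was not tested.

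**Figure D2:**
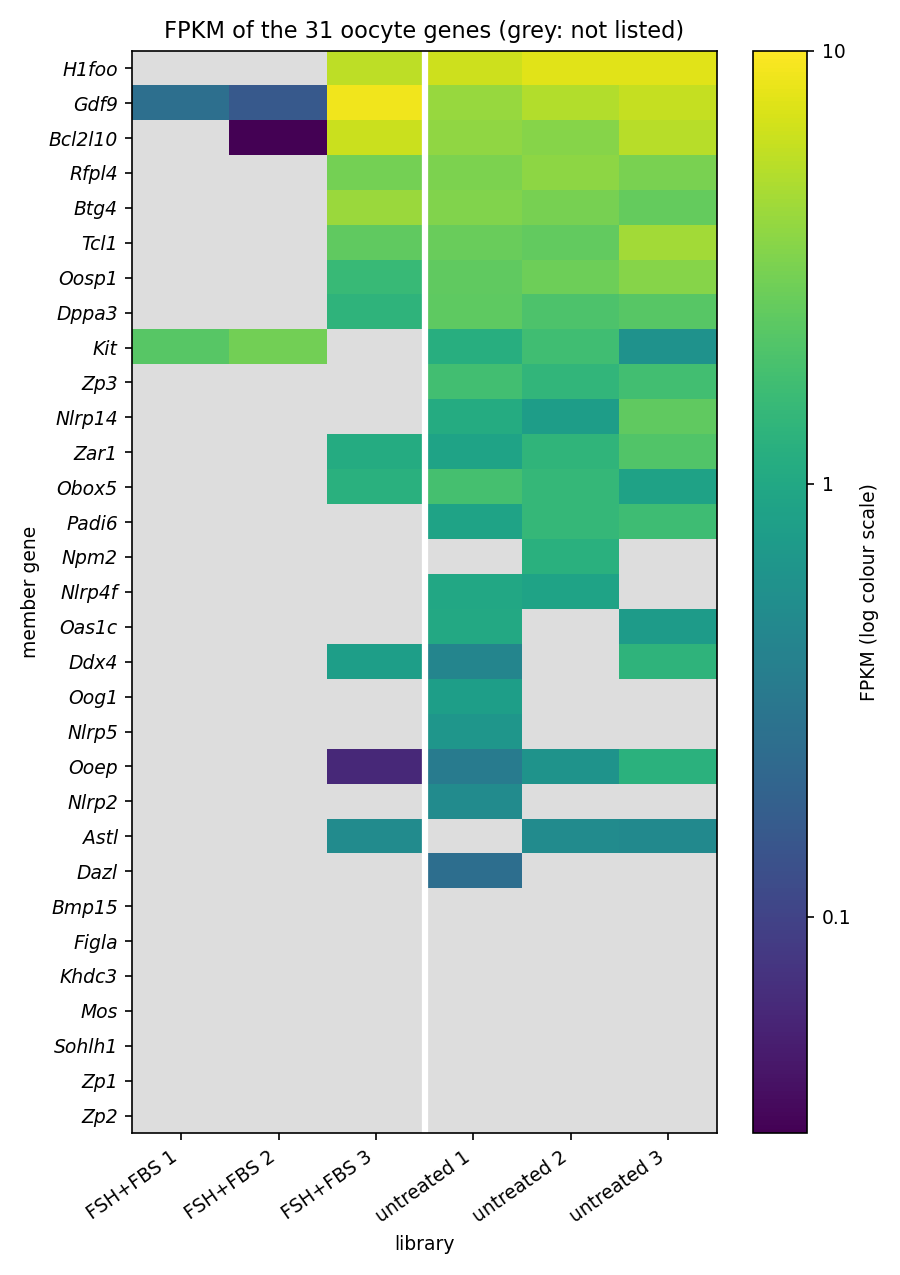
Each row is an oocyte gene and each column a library, coloured by FPKM on a log scale, with grey for a gene that was not listed; genes are ordered by their mean over the libraries that list them. The columns of FSH and FBS libraries 1 and 2 are grey apart from Kit, Gdf9 and a trace of Bcl2l10, and the column of FSH and FBS library 3 is filled for 13 genes.

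Gdf9, the oocyte growth factor, was the 1 member listed in all 6 libraries, as were 69.4% of all genes, with rows on chromosome 11 between 53429002 and 53433802 (positions as deposited, the genome build not being given in the sources used here). Its level in FSH and FBS libraries 1, 2 and 3 was 0.260, 0.157 and 8.77 FPKM, against 4.16, 5.10 and 6.06 FPKM in the untreated libraries. In FPKM as deposited, FSH and FBS library 3 held the highest value of the 6 and libraries 1 and 2 the lowest, so the groups overlapped. It was also the 1 member that passed the filter for testing, which asks for a listing in all 6 libraries and a mean of at least 1 FPKM. On the log2(FPKM + 1) scale, which understates the change of low genes, its difference was -0.88 (SE 0.84, n = 2 per group), and it did not pass (limma adjusted p = 0.65). Of the 9022 genes tested, 2.37% were called, 152 higher (1.68%) and 62 lower (0.687%) after FSH and FBS at an adjusted p under 0.05. The balance of directions moved with the scaling: 50 were higher and 41 lower by median of ratios, 59 and 45 with equal sums, and 104 and 80 with quantile normalization. Median of ratios took the median log2 difference of all genes to 0.0051, against 0.24 without rescaling. With genes that were not listed set to 0, 9 members were tested. Limma called none of them, with 0 at an unadjusted p under 0.05, beside 1.83% of 10129 genes called. Their log2 differences were all negative. Except for Gdf9, each of them was set to 0 in at least 1 FSH and FBS library and in no untreated one. Apart from Gdf9 the signs therefore restate the listing and are no separate result. Without FSH and FBS library 3, Gdf9 had 0.209 FPKM after FSH and FBS, as the mean of libraries 1 and 2, against 5.35 ± 1.01 FPKM in untreated cells (SD, n = 2). The difference was then -2.38 (SE 0.52, limma adjusted p = 0.0056), in a fit that called 4.11% of 9366 genes and that assumes the lone FSH and FBS sample to vary like the untreated ones. In FSH and FBS library 3, 2.11 of the 8.77 FPKM came from a first-exon row at 53429002 to 53429149 that no other library listed, and without it the gene stood at 6.66 FPKM. In FSH and FBS libraries 1 and 2 the only last-exon row ran from 53433607 to 53433780, inside the span of the shared first exon.

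Bcl2l10, a member of the BCL2 family with high ovarian expression, was likewise low or not listed in FSH and FBS libraries 1 and 2. It was not listed in FSH and FBS library 1 and stood at 0.0258 FPKM in library 2 and 6.31 FPKM in library 3, against 3.85, 3.50 and 5.39 FPKM in the untreated libraries. FSH and FBS library 3 was again above every untreated library in FPKM as deposited. The mean over the untreated libraries was 4.25 FPKM for Bcl2l10 and 5.11 FPKM for Gdf9, and FSH and FBS library 3 was 1.48 and 1.72 times that mean.

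A set of 9 members shared 1 listing: not listed in FSH and FBS libraries 1 and 2, and listed in FSH and FBS library 3 and in all 3 untreated libraries. They were H1foo, Rfpl4, Btg4, Tcl1, Oosp1, Dppa3, Zar1, Obox5 and Ooep, 37.5% of the 24 members listed anywhere. Of all 13318 genes listed in any library, 0.383% had this listing, which is 51 genes. Among the 9336 genes listed in FSH and FBS library 3 and in all 3 untreated libraries, 0.546% were missing from FSH and FBS libraries 1 and 2, while 9 of the 11 members so listed were missing there. The list was proposed with the sums of oocyte genes in these libraries known, so these shares are a description and carry no test.

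H1foo, the linker histone of the oocyte, was the highest member in every untreated library. It stood at 5.62 FPKM in FSH and FBS library 3, against 6.44, 7.64 and 7.75 FPKM in the untreated libraries. Its first-exon row, its last-exon row and a row of type SKIP_OFF for the exon at 115946958 to 115947036 of chromosome 6, whose pattern names the flanking exon ends and not the exon, had the same FPKM within each library. No row that includes this exon was listed, so 1 transcript form carried the whole value in all 4 libraries.

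Rfpl4, which encodes a RING finger protein of the oocyte, stood at 2.98 FPKM in FSH and FBS library 3, against 3.25, 3.77 and 3.16 FPKM in the untreated libraries. Btg4, an adaptor that brings the CCR4-NOT deadenylase to maternal transcripts, stood at 4.202 FPKM in FSH and FBS library 3, against 3.36, 3.05 and 2.56 FPKM in the untreated libraries. Tcl1, a coactivator of the kinase AKT, stood at 2.43 FPKM in FSH and FBS library 3, against 2.66, 2.52 and 4.45 FPKM in the untreated libraries. In FPKM as deposited, FSH and FBS library 3 was thus above all untreated libraries for Btg4 and below all of them for Rfpl4 and Tcl1. Tcl1 rows carried the exons at 105218223 to 105218292 and at 105218659 to 105218829 of chromosome 12, and untreated libraries 2 and 3 also listed a shorter form of that second exon, starting at 105218708, at 0.313 and 2.45 FPKM.

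Oosp1, an oocyte-secreted protein, stood at 1.54 FPKM in FSH and FBS library 3, against 2.45, 2.78 and 3.54 FPKM in the untreated libraries. Dppa3, which shields the maternal genome from loss of DNA methylation after fertilization, stood at 1.34 FPKM in FSH and FBS library 3, against 2.37, 1.997 and 2.25 FPKM in the untreated libraries. Both were lower in FSH and FBS library 3 than in any untreated library. For Oosp1 the form that includes the exons between 11687335 and 11688848 of chromosome 19 (MSKIP_ON) stood at 1.27 FPKM in FSH and FBS library 3, against 2.40, 2.69 and 3.54 FPKM in the untreated libraries. The form without them (MSKIP_OFF) stood at 0.278 FPKM in FSH and FBS library 3, against 0.0362 and 0.0868 FPKM in untreated libraries 1 and 2 and no row in untreated library 3.

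Zar1, an RNA-binding protein needed at the change from oocyte to embryo, stood at 1.08 FPKM in FSH and FBS library 3, against 0.900, 1.36 and 2.11 FPKM in the untreated libraries. Obox5, of the oocyte homeobox family, stood at 1.22 FPKM in FSH and FBS library 3, against 1.84, 1.47 and 0.879 FPKM in the untreated libraries. For these genes FSH and FBS library 3 lay within the untreated range in FPKM as deposited. Ooep, a subunit of the subcortical maternal complex that lies under the membrane of the egg, stood at 0.0619 FPKM in FSH and FBS library 3, against 0.345, 0.603 and 1.26 FPKM in the untreated libraries, and so was far lower in that library. Obox5 and Tcl1 belong to families of similar genes, and reads may be shared between family members.

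**Figure D3:**
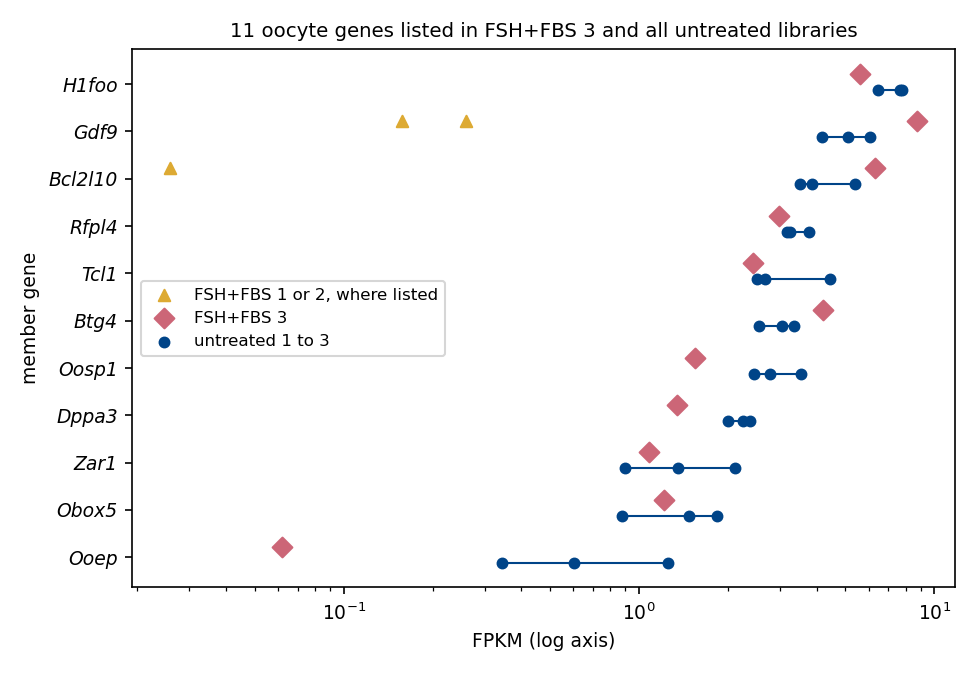
FPKM on a log axis for the 11 oocyte genes listed in FSH and FBS library 3 (diamonds) and in all 3 untreated libraries (circles, joined by a line over their range), with triangles where FSH and FBS library 1 or 2 listed the gene. Diamonds lie beside the circles for most genes, with Ooep at 0.0619 FPKM as the exception, and the 3 triangles of Gdf9 and Bcl2l10 lie far to the left.

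Across these 11 members, in FPKM as deposited, FSH and FBS library 3 was above the untreated range for 3 genes, within it for 2 and below it for 6. Its summed FPKM over all genes was 390969, against 265079, 264904 and 268062 in untreated libraries 1, 2 and 3. Scaling to equal sums multiplies its values by 0.740 and theirs by 1.09, 1.09 and 1.08. The places above the untreated range therefore depend on the scaling. The ratio of FSH and FBS library 3 to the untreated mean had a median of 0.771 and ran from 0.0842 for Ooep to 1.72 for Gdf9. Over all 9336 genes listed in these 4 libraries the median of the same ratio was 1.15, with quartiles of 0.723 and 1.74. FSH and FBS library 3 was above the untreated range for 47.8% of these genes, within it for 26.9% and below it for 25.3%. The order of the members by FPKM was alike in these libraries: Spearman's rho over the 11 genes was 0.97, 0.93 and 0.86 between FSH and FBS library 3 and untreated libraries 1, 2 and 3, and 0.86 to 0.96 between the untreated libraries. These are descriptions over genes that share a library and differ in length, not tests.

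To show the start regions of genes that were listed together, the 250 bases upstream of the start are given for the 4 most abundant members that RefSeq promoters (GRCm38.p6) held. Gdf9 and Bcl2l10 had no entry there. Capitals mark matches, on either strand, to the E-box CANNTG, the element bound by the oocyte factor FIGLA, to the NOBOX element TAATTG with its variants TAGTTG and, with another last base, TAATTA, and to the LHX8 element TGATTG. H1foo (chr6:115944681-115944930, plus strand), Rfpl4 (chr7:5116912-5117161, minus strand), Btg4 (chr9:51115751-51116000, plus strand) and Tcl1 (chr12:105222738-105222987, minus strand) read as follows.
H1foo: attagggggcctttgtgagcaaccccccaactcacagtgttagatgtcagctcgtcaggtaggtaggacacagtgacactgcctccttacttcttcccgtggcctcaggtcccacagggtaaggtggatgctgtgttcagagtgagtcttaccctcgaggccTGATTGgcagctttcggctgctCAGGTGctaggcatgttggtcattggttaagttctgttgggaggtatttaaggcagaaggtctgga
Rfpl4: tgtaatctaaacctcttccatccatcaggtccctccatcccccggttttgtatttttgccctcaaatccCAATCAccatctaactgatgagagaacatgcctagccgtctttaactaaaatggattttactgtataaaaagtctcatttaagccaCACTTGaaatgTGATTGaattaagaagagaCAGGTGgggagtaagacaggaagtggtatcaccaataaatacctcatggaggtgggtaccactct
Btg4: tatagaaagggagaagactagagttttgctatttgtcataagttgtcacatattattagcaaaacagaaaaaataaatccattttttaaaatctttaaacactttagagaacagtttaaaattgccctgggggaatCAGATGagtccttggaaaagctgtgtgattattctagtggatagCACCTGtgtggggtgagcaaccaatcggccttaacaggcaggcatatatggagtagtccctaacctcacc
Tcl1: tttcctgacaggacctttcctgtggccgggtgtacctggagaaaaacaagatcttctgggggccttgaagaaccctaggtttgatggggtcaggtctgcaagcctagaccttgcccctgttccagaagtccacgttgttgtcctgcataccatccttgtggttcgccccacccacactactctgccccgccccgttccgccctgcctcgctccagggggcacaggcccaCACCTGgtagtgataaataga

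H1foo held 1 E-box and 1 LHX8 element, Rfpl4 2 E-boxes and 2 LHX8 elements, Btg4 2 E-boxes and Tcl1 1 E-box, and none of these 4 windows held a NOBOX element. Of the 31 members, 23 had 26 promoters in the table. An E-box was found in 21 of these 26 promoters, against 66.2% of all 32851 promoters in windows of the same length. A NOBOX element was found in 6 of the 26 and in 16.1% of all promoters, and an LHX8 element in 5 of the 26 and in 12.7% of all. Overlapping matches were counted for each motif, and a match is only a run of letters.

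Another 10 members were listed in untreated libraries and in no FSH and FBS library, as were 9.18% of all genes. Zp3, a zona pellucida glycoprotein that takes part in sperm binding, stood at 1.76, 1.38 and 1.75 FPKM in untreated libraries 1, 2 and 3. Padi6, an egg protein of the cytoplasmic lattices, stood at 0.888, 1.46 and 1.68 FPKM there, and Nlrp14, of the NLR family, at 1.09, 0.786 and 2.47 FPKM. These 3 genes were listed in all 3 untreated libraries. FSH and FBS library 3, which did not list them, had the fewest event rows (63940) and listed genes (10477). Why they were not listed there was not tested. The other 7 were listed in 1 or 2 untreated libraries, between 0.253 FPKM for the germ-cell RNA-binding protein gene Dazl and 1.23 FPKM for Npm2, a histone chaperone of the egg. They include the maternal-effect gene Nlrp5 at 0.644 FPKM in untreated library 1, Nlrp2 at 0.505 FPKM and Oog1 at 0.799 FPKM in the same library, Nlrp4f at 0.996 and 0.900 FPKM in untreated libraries 1 and 2, and Oas1c at 1.03 and 0.750 FPKM in untreated libraries 1 and 3. Reads of the Nlrp and Oog genes may be shared with close relatives.

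Germ-cell helicase Ddx4 and the egg protease gene Astl, whose product cleaves ZP2 after fertilization, were listed in part of both groups. Ddx4 stood at 0.805 FPKM in FSH and FBS library 3, against 0.439 and 1.35 FPKM in untreated libraries 1 and 3. Astl stood at 0.503 FPKM in FSH and FBS library 3, against 0.510 and 0.483 FPKM in untreated libraries 2 and 3. Neither was listed in FSH and FBS library 1 or 2. For 7 members no row was read in any library: Bmp15, the partner of GDF9, the zona genes Zp1 and Zp2, the meiotic kinase gene Mos, the transcription factor genes Figla and Sohlh1, and Khdc3 of the subcortical maternal complex. Their levels were not analysed here.

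**Figure D4:**
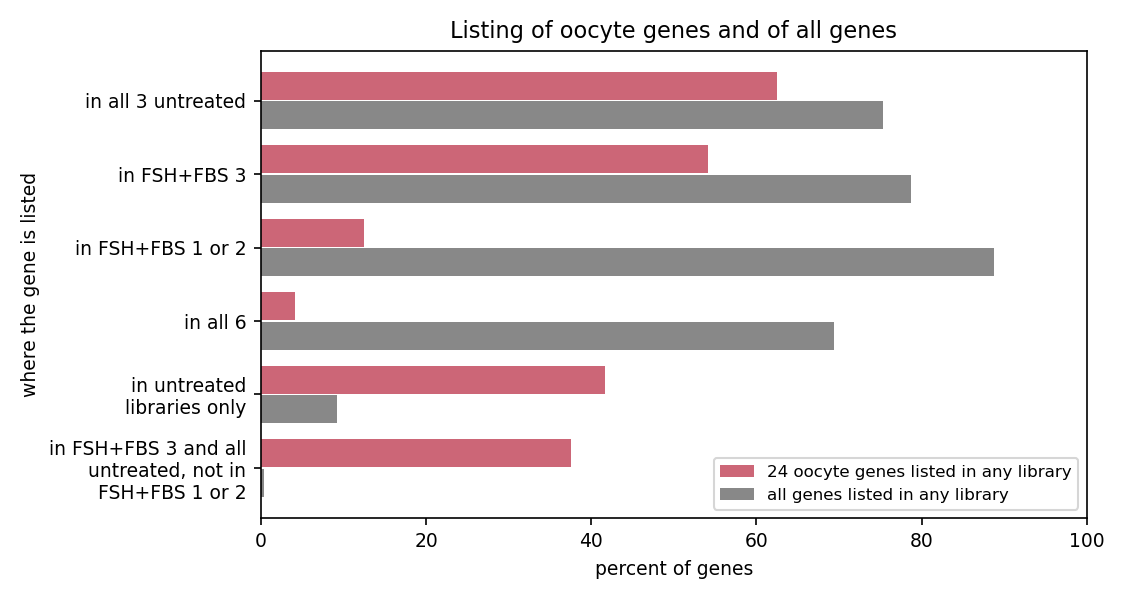
Bars give the percent of genes with each listing, for the 24 oocyte genes listed in any library (above) and for all 13318 genes listed in any library (below). All 3 untreated libraries list 62.5% of the oocyte genes and 75.3% of all genes, while 12.5% of the oocyte genes and 88.7% of all genes are listed in FSH and FBS library 1 or 2.

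Kit, the receptor of KIT ligand, did not follow the other members. Its level was 2.27 FPKM in FSH and FBS library 1 and 2.97 FPKM in library 2, and it was not listed in library 3, against 1.17, 1.72 and 0.600 FPKM in the untreated libraries. The libraries with the fewest oocyte transcripts thus had the most Kit, and FSH and FBS library 3, with 13 oocyte genes, had none listed. KIT is made by oocytes and also by several somatic and blood cell types. Which cells its transcript came from here was not tested. Kit did not enter the test, since it was not listed in all 6 libraries. Without FSH and FBS library 3 it did, and its log2 difference of 0.87 (SE 0.50) did not pass (limma adjusted p = 0.46).

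The first exons of Kit differed between the libraries as well. The first exon nearest the 5′ end of the gene, at 75574916 to 75575118 of chromosome 5, held 2.06 of 2.27 FPKM in FSH and FBS library 1 and 1.79 of 2.97 FPKM in library 2. It held 0.565 of 1.72 FPKM in untreated library 2 and was not listed in untreated libraries 1 and 3. An internal first exon that ends at 75645986 held 0.00896 FPKM in FSH and FBS library 1 and 0.283 FPKM in library 2, against 0.840, 1.01 and 0.600 FPKM in the untreated libraries. In untreated library 3 this internal exon held 100% of the Kit first-exon signal and no last exon of Kit was listed. Rows that begin inside the gene thus carried most of the Kit signal in the untreated libraries and less of it in FSH and FBS libraries 1 and 2.

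**Figure D5:**
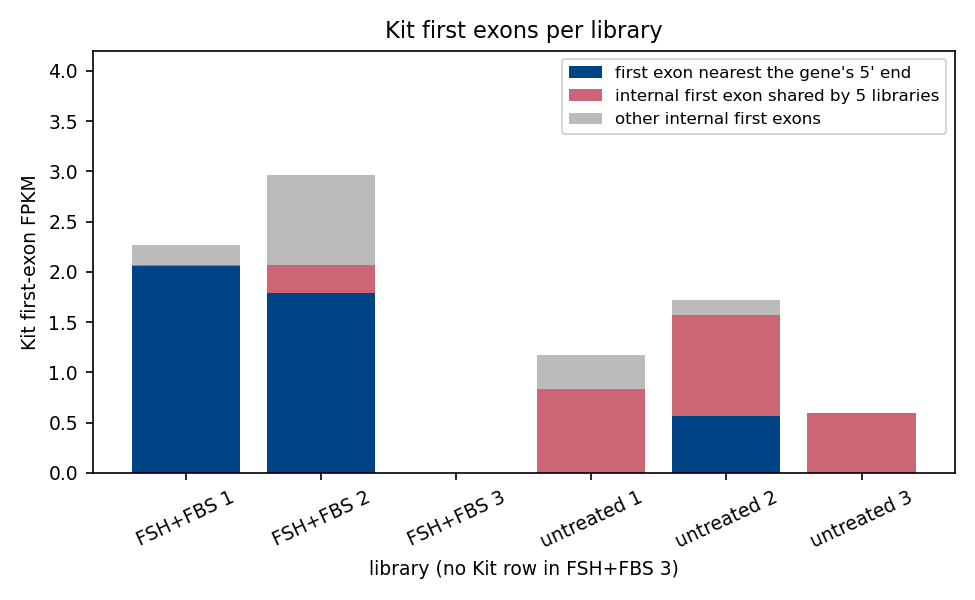
Stacked bars give the first-exon FPKM of Kit in each library, split by the first exon nearest the 5′ end, the internal first exon found in 5 libraries, and other internal first exons. The 5′ exon fills most of the bars of FSH and FBS libraries 1 and 2 (2.06 and 1.79 FPKM) and the internal exon most of the untreated bars (0.840, 1.01 and 0.600 FPKM).

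The event rows of the oocyte genes held no retained introns. None of their 219 event rows was an intron-retention row, while 19.7% of the 465664 rows of the series were. That share is not matched for abundance, and the members are low genes. Of the 24 members listed, 10 had any row other than first and last exons. Whether low abundance accounts for the missing intron rows was not tested. First-exon and last-exon sums were both present in 55 of 76 gene and library values, and in 49 of these they matched within 1%. A last exon without a first exon made up 12 values and a first exon without a last exon made up 9, of which 4 were Gdf9 values.

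A second list of 46 oocyte genes was drawn up from textbook knowledge, with earlier results of these data known. It was also listed less in FSH and FBS libraries 1 and 2. Of the 46 genes, 33 were listed in any library and 13 in none. FSH and FBS libraries 1, 2 and 3 listed 6, 7 and 16 of them, against 29, 26 and 20 in untreated libraries 1, 2 and 3. Of all 13318 genes, FSH and FBS libraries 1, 2 and 3 listed 11364, 11398 and 10477, and the untreated libraries 11404, 11551 and 10787. The genes of this list had summed values of 36.0, 34.3 and 52.6 FPKM in FSH and FBS libraries 1, 2 and 3, against 73.2, 74.0 and 57.7 FPKM in the untreated libraries. Most of the sum in FSH and FBS libraries 1 and 2 came from Zbed3, Plat, Zfp57 and Tle6. These stood at 14.0, 9.34, 6.37 and 5.56 FPKM in library 1 and at 12.7, 9.40, 5.47 and 4.62 FPKM in library 2. No other gene of the list stood above 0.445 FPKM in FSH and FBS library 1 or above 1.53 FPKM in library 2. Of the 51 genes with the listing shared by the 9 members, 9 were members, another 9 were on this second list, and 33 were on neither. The 10 most abundant of those outside the members, leaving out predicted genes, were Il34, Obox1, Dysf, Omt2b, Oosp3, Oog3, Oas1d, Tcl1b1, Fbxw24 and Omt2a, of which 7 were on the second list. Obox1, a relative of Obox5, stood at 3.87 FPKM in FSH and FBS library 3, against 4.96, 5.38 and 2.73 FPKM in the untreated libraries. Omt2b stood at 2.87 FPKM in FSH and FBS library 3, against 1.68, 1.38 and 2.43 FPKM in the untreated libraries, and Oosp3, a relative of Oosp1, at 1.06 FPKM against 2.01, 3.004 and 1.72 FPKM in the untreated libraries. In FPKM as deposited, FSH and FBS library 3 lay within the untreated range for Obox1, above it for Omt2b and below it for Oosp3. Il34, a cytokine that binds the CSF1 receptor, and Dysf, which encodes the membrane repair protein dysferlin, shared the listing and were far lower in FSH and FBS library 3 than in any untreated library. Il34 stood at 1.09 FPKM in FSH and FBS library 3, against 9.60, 9.23 and 6.30 FPKM in the untreated libraries, and Dysf at 0.455 FPKM against 6.21, 4.99 and 4.69 FPKM in the untreated libraries.

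The receptors and SMADs through which GDF9 and BMP15 act in cumulus cells, together with Smad6, Smad7 and Furin, were listed in every library. Of these 14 genes tested with limma, none was called higher or lower. An unadjusted p under 0.05 was found for 3 of them, Smad6, Bmpr2 and Furin, and for 16.5% of all genes tested. The median log2 difference of the 14 was -0.15, beside 0.24 over all 9022 genes. Tgfbr1, the type I receptor used by GDF9, had 102.2 ± 51.3 FPKM after FSH and FBS and 63.3 ± 16.1 FPKM in untreated cells (SD, n = 2, limma adjusted p = 0.56). Bmpr2, the type II receptor of both factors, had 10.5 ± 9.71 FPKM after FSH and FBS and 39.8 ± 17.9 FPKM in untreated cells (SD, n = 2, limma adjusted p = 0.17). Bmpr1b, a type I receptor of BMP15, had 15.0 ± 9.12 FPKM after FSH and FBS and 29.1 ± 8.96 FPKM in untreated cells (SD, n = 2, limma adjusted p = 0.35). None of these differences passed the test at 2 samples per group.

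Of 9 genes by which cumulus cells answer or feed the oocyte, 6 were tested, none was called by limma and 3 had an unadjusted p under 0.05, beside 2.37% of all genes called and 16.5% at that unadjusted p. The median log2 difference of the 6 was 0.58, against 0.24 over all genes. Gja1, the connexin of cumulus gap junctions, had 343.8 ± 146.2 FPKM after FSH and FBS and 845.2 ± 192.7 FPKM in untreated cells (SD, n = 2, limma adjusted p = 0.27). Fst, which encodes the activin-binding protein follistatin, had 122.5 ± 17.6 FPKM after FSH and FBS and 80.3 ± 11.97 FPKM in untreated cells (SD, n = 2, limma adjusted p = 0.47). Kitl, the ligand of KIT, is named after its values were seen. Its level was 9.90 FPKM in FSH and FBS library 1 and 10.2 FPKM in library 2, and it was not listed in library 3, against 20.4, 20.1 and 2.75 FPKM in the untreated libraries. Kit and Kitl were thus both not listed in FSH and FBS library 3 and both lowest among untreated cells in library 3.

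Sums of markers of other cells differed less between the FSH and FBS libraries than the oocyte sum did. Theca and stroma markers, 4 to 7 of 13 listed, summed to 34.0, 34.0 and 41.6 FPKM in FSH and FBS libraries 1, 2 and 3, against 95.3, 91.9 and 73.1 FPKM in the untreated ones. Most of this difference was Acta2, smooth muscle actin, whose levels after FSH and FBS were 13.6, 14.5 and 17.5 FPKM in libraries 1, 2 and 3, against 66.6, 67.7 and 58.3 FPKM in the untreated libraries. It was the 1 called gene of the 4 tested from this list, beside 2.37% of all genes tested (log2 difference -1.93, SE 0.34, limma adjusted p = 0.030). The call was lost with first exons only (limma adjusted p = 0.071) and without untreated library 3, where the difference was -2.03. Ptch1, named after its values were seen, had values on the other side, with 8.95, 10.1 and 10.3 FPKM in cells given FSH and FBS, against 7.52, 6.45 and 2.34 FPKM in the untreated libraries (limma adjusted p = 0.31). Leukocyte markers, 4 to 7 of 15 listed, summed to 4.17, 3.01 and 7.71 FPKM, against 10.7, 9.11 and 12.6 FPKM in the untreated libraries. Endothelial markers, at most 2 of 10 listed, summed to 3.37, 2.63 and 2.58 FPKM, against 0.0224 and 0.454 FPKM in untreated libraries 1 and 2. Untreated library 3 listed none of them. Most of the sums after FSH and FBS was Cdh5, at 2.06, 2.63 and 2.58 FPKM, which no untreated library listed. Erythroid markers, 1 to 4 of 8 listed, summed to 0.404, 0.277 and 1.92 FPKM, against 0.726, 0.540 and 0.393 FPKM in the untreated libraries. The theca enzyme gene Cyp17a1 was at 0.0321 FPKM in untreated library 1 and not listed elsewhere, and the leukocyte gene Ptprc was at 0.00504 FPKM in FSH and FBS library 1 and not listed elsewhere. The part that any of these cells, or oocyte RNA, has in the group differences of other genes was not tested.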

How the data were processed

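RNA from cumulus cells was measured in 6 libraries, 3 per group. Small-RNA samples were not used here. Per the file headers, the authors deposited 1 table per library with FPKM values for transcript events. The aligner named in the submitters' processing notes is HISAT2 2.0.1. Assembler, filters, genome build and strandedness are not given in the sources used here. No file holds counts, so depth is unknown and no counting interval is given. The members and lists were chosen with earlier results of these data known.

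First-exon and last-exon FPKM were each summed per gene on the strand with most signal, and the larger sum was kept. Rows without a gene identifier, 0.880% of rows, were left out. Supplied gene names matched 13281 of 13318 genes. Libraries 1 and 2 of each group were averaged. The package limma 3.58.1 (R 4.3.3; trended prior) was run on log2(FPKM + 1) over the 9022 genes that every library listed and whose mean reached 1 FPKM, two-sided, with Benjamini-Hochberg adjustment over all genes and a threshold of 0.05. The script was tested on simulated data. Sums and listings carry no test. Members that 4 or more libraries listed, at a mean of 1 FPKM or more, are described library by library; of other lists, up to 4 called genes are named, or up to 3 of the most abundant where none was called, and of genes with the same listing as members the 10 most abundant.

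The library numbers were checked for pairing: deviations from the group means of same-numbered libraries correlated at 0.32, 0.31 and 0.51 over the tested genes. FSH and FBS library 1 with untreated library 2 gave 0.31, and FSH and FBS library 2 with untreated library 1 gave 0.33. Pairs of library 3 with library 1 or 2 ran from -0.44 to -0.36. The numbers thus do not pair libraries 1 and 2, which are near repeats, and the groups share only 1 split of these against 3. With a replicate block for this split limma called 1447 genes in place of 214, and no member. Alternatives covered the pseudocount, the filter, unlisted genes as 0, first or last exons alone, both strands, 3 rescalings, separate libraries and leaving out each library.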

Additional observations from a re-analysis of the deposited data

How the results depend on the processing

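Gdf9 kept a negative log2 difference under all 17 alternatives that could test it and passed in 1 of them, without FSH and FBS library 3 (-2.38); under the others it ran from -1.71 to -0.71 with limma adjusted p from 0.22 to 0.91. The replicate block left Gdf9 at -0.88 (limma adjusted p = 0.22) and took the calls over all genes to 1447. No member was called in any other alternative; with unlisted genes as 0, 9 members were tested, none was called (0 at an unadjusted p under 0.05), and the fit called 1.83% of 10129 genes. Over all genes the 214 calls became 63 with first exons only, 104 with equal sums, 91 by median of ratios (55% of them higher, against 71% without rescaling) and 1323 with 6 separate libraries, and ranged from 75 (without untreated library 3) to 385 (without FSH and FBS library 3). The members called ranged from 0 to 1 when a library was left out. The members listed in at least 1 FSH and FBS library were 14, and 3 to 14 when a library was left out. Leaving out a library took the summed FPKM after FSH and FBS from 2.84 to 20.0. The untreated sum of 44.99 FPKM was 40.0 with first exons only, 38.6 with last exons only and 37.6 without H1foo. The sum of FSH and FBS library 3 stayed below each untreated sum in all 8 settings tried, 2 of them, the Gdf9 row and Kit left out, chosen after seeing the data. For unlisted genes, unknown depth limits what can be said.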

Other observations

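A few genes of the second oocyte list were listed in FSH and FBS libraries 1 and 2 and did not follow the members. Zbed3 in FSH and FBS libraries 1, 2 and 3 had 14.0, 12.7 and 13.7 FPKM, against 26.4, 28.0 and 24.3 FPKM in the untreated libraries (limma adjusted p = 0.25). Zfp57, which protects imprints, stood at 6.37, 5.47 and 4.27 FPKM, against 18.8, 16.8 and 7.45 FPKM in the untreated libraries (limma adjusted p = 0.31). Plat, tissue plasminogen activator, stood at 9.34, 9.40 and 8.35 FPKM, against 4.70, 4.73 and 2.79 FPKM in the untreated libraries (limma adjusted p = 0.23). None of the 4 genes of this list that were tested was called, and 2 had an unadjusted p under 0.05, beside 2.37% of all genes called and 16.5% at that unadjusted p. The fourth, Tle6, whose product is a partner of OOEP in the subcortical maternal complex, is named after its values were seen, at 5.56, 4.62 and 7.42 FPKM against 1.49, 2.17 and 4.24 FPKM in the untreated libraries (limma adjusted p = 0.35). Dnmt3l, a cofactor of DNA methylation in germ cells, also named after its values were seen, in FSH and FBS libraries 1, 2 and 3 had 0.445, 1.53 and 3.78 FPKM, against 0.498 FPKM in untreated library 3 and no listing in untreated libraries 1 and 2.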
